A study of Homo sapiens with 6 samples.

Results

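Chromatin occupancy by N-Myc and JMJD6 in neuroblastoma cells was examined at 9 genes of glutamine use and amino acid transport: SLC1A5, SLC7A5, SLC7A11, SLC3A2, SLC7A1, SLC38A1, SLC38A2, GLS2 and GLUD1. The 9 genes were chosen by symbol for their known function, with earlier results of these data known. A gene was called listed when its symbol stood in a deposited list of N-Myc or JMJD6 promoters, typical enhancers or super-enhancers. Of the 9 genes, 7 were named in at least 1 list, and the lists named 8218 gene symbols in all. SLC7A11 and GLUD1 were named in none.

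The data came from ChIP-seq of the human neuroblastoma line CHP-134, with 3 samples for an N-Myc antibody and 3 for a JMJD6 antibody. The study describes this line as MYCN amplified and with a gain of the JMJD6 gene. All cells grew in RPMI medium with fetal bovine serum and l-glutamine. Chromatin for N-Myc was cross-linked with formaldehyde alone and chromatin for JMJD6 with disuccinimidyl glutarate and then formaldehyde, so the antibody and the cross-linking cannot be told apart. The series is described as N-Myc overexpressing cells, and no sample with low N-Myc was part of it, so the lists give occupancy in 1 state of 1 cell line. The lists hold positions only, of 10172 N-Myc peaks and 561 JMJD6 peaks common to all 3 samples of an antibody. They hold no height, count or value per sample, so the read depth at a peak is not known beyond the minimum per sample that the methods state, and no spread or test between samples could be given. Counts for the 9 genes stand beside the same counts over 19222 autosomal protein-coding genes or over all peaks, as a description.

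Glutamine enters cells through membrane transporters, gives its nitrogen to nucleotides and amino acids, and is turned into glutamate and then 2-oxoglutarate in mitochondria. SLC1A5 exchanges glutamine for other neutral amino acids. SLC7A5 (LAT1) takes up leucine and other large neutral amino acids in exchange for glutamine, and SLC7A11 (xCT) takes up cystine in exchange for glutamate. SLC7A5 and SLC7A11 each work as a dimer with the heavy chain SLC3A2 (CD98). SLC7A1 carries arginine and lysine, SLC38A1 and SLC38A2 carry glutamine with sodium, GLS2 is a glutaminase, and GLUD1 is glutamate dehydrogenase. MYC proteins bind the E-box CACGTG as dimers with MAX and are known for raising glutamine use in tumour cells. ATF4, which is induced when amino acids are short, binds with C/EBP proteins at sites of the form TGATGNAA, called here the C/EBP-ATF core.

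The sequences below were read from the GRCh37 reference, the build of the lists, in the direction of each gene, and coordinates are 1-based. The canonical E-box is in capitals in these windows from N-Myc peaks on the genes' own promoters. They are shown because 3 of the 7 N-Myc peaks on promoters of these genes held CACGTG, at SLC1A5, SLC7A5 and SLC38A1.
SLC1A5 promoter peak, chr19:47290146-47290211: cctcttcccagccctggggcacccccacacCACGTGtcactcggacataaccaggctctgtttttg
SLC7A5 promoter peak, site A, chr16:87902114-87902179: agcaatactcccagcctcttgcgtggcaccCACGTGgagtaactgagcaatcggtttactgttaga
SLC7A5 promoter peak, site B, chr16:87902303-87902368: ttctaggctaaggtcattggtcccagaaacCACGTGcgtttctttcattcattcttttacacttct
SLC38A1 promoter peak, chr12:46663620-46663649: ttcggtcgggacCACGTGgggtctccaggc

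A further set shows the canonical E-boxes in N-Myc peaks away from the genes' own promoters. They lie at listed typical enhancers that name SLC7A5 or GLS2 among their nearest genes. The GLS2 peak lies on the listed promoter of SPRYD4, and the far downstream SLC7A5 peak on that of LOC102724467. The capitals again mark CACGTG.
SLC7A5 intron peak, site A, chr16:87894508-87894573: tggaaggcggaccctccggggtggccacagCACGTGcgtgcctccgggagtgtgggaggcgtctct
SLC7A5 intron peak, site B, chr16:87894689-87894754: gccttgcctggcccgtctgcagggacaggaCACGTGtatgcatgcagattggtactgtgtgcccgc
SLC7A5 downstream peak, chr16:87840323-87840388: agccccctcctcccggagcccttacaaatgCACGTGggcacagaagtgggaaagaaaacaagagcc
SLC7A5 peak far downstream, chr16:87811675-87811740: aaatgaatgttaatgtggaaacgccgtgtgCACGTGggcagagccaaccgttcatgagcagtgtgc
SLC7A5 upstream peak, site A, chr16:87958693-87958758: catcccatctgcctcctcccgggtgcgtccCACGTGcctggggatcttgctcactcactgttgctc
SLC7A5 upstream peak, site B, chr16:87959085-87959150: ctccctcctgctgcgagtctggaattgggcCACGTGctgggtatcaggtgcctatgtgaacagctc
GLS2 enhancer peak, chr12:56862270-56862335: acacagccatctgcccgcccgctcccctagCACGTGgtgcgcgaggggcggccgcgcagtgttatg

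The next set comes from N-Myc peaks with no CACGTG, at SLC3A2, SLC38A2 and SLC7A1. The capitals mark a non-canonical E-box, meaning CACGCG or CATGTG or CATGCG on either strand. In the SLC3A2 promoter peak the matches to CATGCG lay in overlapping pairs, of which 1 match is in capitals in each window.
SLC3A2 promoter peak, upstream of the start, chr11:62623441-62623470: gcatacgttgacCGCATGcgaccccgggga
SLC3A2 promoter peak, past the start, chr11:62623534-62623563: gaaaaaggcgcgCATGCGtcctacgggagc
SLC38A2 promoter peak, chr12:46766479-46766508: cagcagcccgacCACGCGttaccgcacgct
SLC7A1 intron peak, chr13:30168521-30168586: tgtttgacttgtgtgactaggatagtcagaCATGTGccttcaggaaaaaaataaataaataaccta

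The plot of peak positions gives every peak in the regions that name the 9 genes. Together these regions held 19 distinct N-Myc peaks and 1 JMJD6 peak.

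**Figure D1:**
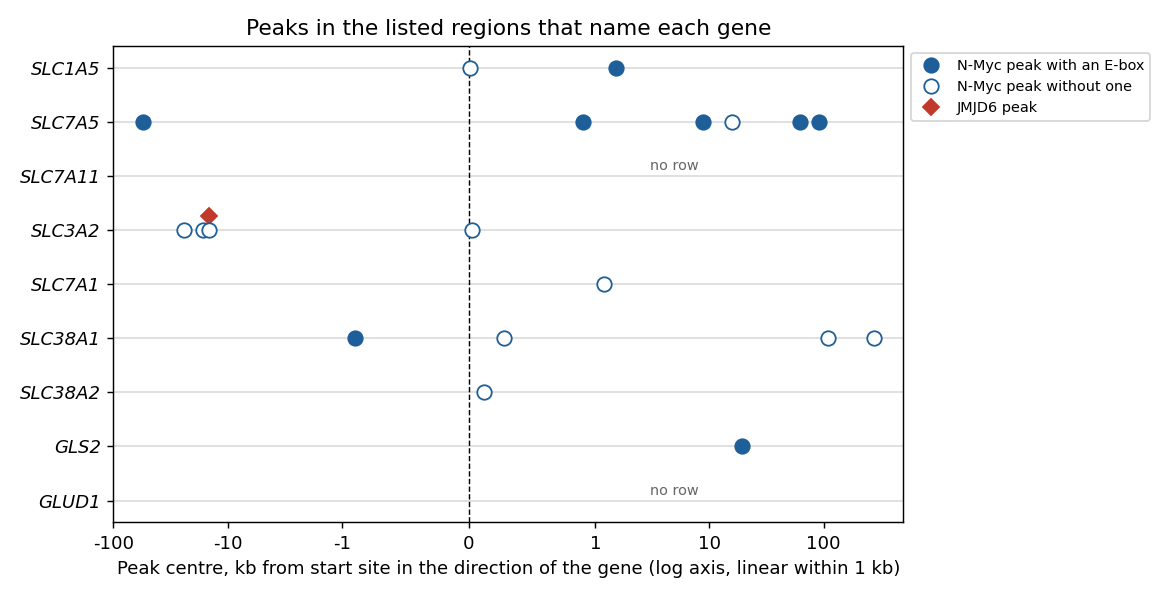
Centres of N-Myc peaks (circles, filled where the peak holds CACGTG) and of the JMJD6 peak (diamond) in listed regions that name each gene, in kb from the start site along the gene, on a log axis that is linear within 1 kb. SLC7A5 has 6 N-Myc peaks, 5 of them with CACGTG, SLC3A2 has 4 N-Myc peaks without it and the only JMJD6 peak, and SLC7A11 and GLUD1 have none.

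N-Myc was listed at the promoters of 5 of the 9 genes, all transporters or the transporter heavy chain: SLC1A5, SLC7A5, SLC3A2, SLC38A1 and SLC38A2. Over all autosomal protein-coding genes the share was 18.3%. A promoter here is 1 kb on each side of a start site. The enzymes GLS2 and GLUD1 and the transporters SLC7A11 and SLC7A1 had no listed N-Myc promoter. The lists named 6 of the 9 genes at an N-Myc typical enhancer (SLC1A5, SLC7A5, SLC7A1, SLC38A1, SLC38A2 and GLS2), against 32.7% of all genes. Without enhancers that overlapped an N-Myc promoter it was 3 of 9 (SLC7A5, SLC7A1 and SLC38A1), against 14.5% of all genes. SLC3A2 alone among the 9 was named at an N-Myc super-enhancer, against 1.36% of all genes. Of all genes, 61.9% were in none of the N-Myc lists, as were 2 of the 9. The enhancer lists name the nearest genes of a region, which does not show that the region acts on them.

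JMJD6 was listed at no promoter of the 9 genes and at no typical enhancer named for them. Few genes were: the shares over all genes were 0.655% for promoters and 0.942% for typical enhancers, so a count of 0 among 9 says little. SLC3A2 was named at a JMJD6 super-enhancer, as were 0.078% of all genes.

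SLC1A5 had a pair of start sites in the N-Myc promoter list, and each had its own peak. The peak at the annotated start (chr19:47291673-47292003) was 331 bp wide, and its centre lay 13 bp past that start, in the untranslated region. It held no CACGTG and 1 non-canonical E-box. The other peak (chr19:47290055-47290598) was 544 bp wide and lay in an intron, with its centre 1.52 kb past the annotated start and 218 bp past the listed start. It held 1 CACGTG, 148 bp from the peak centre, and a further CACGTG crossed its edge and was not counted. A pair of CACGTG sites upstream of the annotated start, at 651 bp and 756 bp, lay in no peak. Both peaks also overlapped a typical enhancer of 3257 bp whose other named gene was STRN4.

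SLC7A5 had the most N-Myc peaks near its start of the 9 genes, with 9 within 100 kb. At least as many were found for 0.702% of all genes, and the median over all genes was 1. It was named at 4 typical enhancers, and 2.7% of the 6291 genes named at any N-Myc typical enhancer had 4 or more. Each of the 4 also named another gene, KLHDC4 or, for the upstream one, CA5A. Their stated distances to SLC7A5 were 12118, 62510, 96734 and -55621 bp. Which of the named genes a region acts on was not tested. These 4 enhancers and the promoter together held 6 N-Myc peaks, which carried 8 CACGTG sites. The other peaks within 100 kb lay in no listed region that names SLC7A5, and their motifs were not counted here.

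The promoter peak of SLC7A5 (chr16:87901970-87902455) was 486 bp wide and lay in an intron. Its centre was 892 bp past the listed start, and 351 bp of it fell inside the listed promoter. It held 2 CACGTG sites and 1 C/EBP-ATF core. A further CACGTG, 128 bp upstream of the annotated start, was outside the peak.

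Farther into the gene, a peak of 676 bp (chr16:87894080-87894755), with its centre 8.7 kb past the start, held 2 CACGTG sites. Its neighbour at 15.7 kb (chr16:87887241-87887630, 390 bp) held no CACGTG but had 1 C/EBP-ATF core. Both peaks shared an enhancer of 7462 bp, whose other named gene was KLHDC4.

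Beyond the gene's end, a peak of 530 bp at 62.6 kb (chr16:87840277-87840806) held 1 CACGTG and 2 C/EBP-ATF cores in an intergenic region. A peak of 839 bp at 91.5 kb (chr16:87811201-87812039) held 1 CACGTG and lay on the listed N-Myc promoter of LOC102724467. Upstream, the widest of the 6 peaks (chr16:87957964-87959300, 1337 bp) lay 55.5 kb before the start in an intron of CA5A, a carbonic anhydrase gene, and held 2 CACGTG sites. Of all 10172 N-Myc peaks, 99.3% were narrower. Over these peaks, 5 of 6 held CACGTG.

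Some sequence at SLC7A5 occurs elsewhere in the genome. Of the 75-base words in the promoter peak, 93% were unique in the reference, and within 1 kb of the start 85.8% were. The other SLC7A5 peaks were between 99.2% and 100% unique, and every N-Myc peak at the other genes was 100% unique. The effect of the repeated words on the promoter peak was not tested. Nor was their effect on the lack of a listed peak at the CACGTG upstream of the start.

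SLC38A1 also had a pair of listed start sites. The wider peak (chr12:46662119-46662974, 856 bp) covered the annotated start and held 3 non-canonical E-boxes, 1 C/EBP-ATF core and no CACGTG. The narrower peak (chr12:46663483-46663956, 474 bp) had its centre 894 bp upstream of that start and held 1 CACGTG, 85 bp from its centre. Both centres lay in annotated untranslated regions, and both peaks lay in a typical enhancer of 6236 bp. The gene was named at 3 typical enhancers, as many or more being named for 7.66% of genes at typical enhancers. The peaks in the other enhancers lay 108 kb and 278 kb from the annotated start, and the farther one was on the promoter of SCAF11. Neither held CACGTG.

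SLC38A2, which neighbours SLC38A1 on chromosome 12, had the narrowest of the 19 peaks (chr12:46766283-46766584, 302 bp). Its centre was 122 bp past the annotated start. It held no CACGTG and 1 non-canonical E-box. The peak lay in a typical enhancer of 14310 bp whose other named gene was SLC38A4. No other N-Myc peak lay within 100 kb of the start.

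SLC3A2 differed from the other 8 genes in its regions: its promoter peak lay inside an N-Myc super-enhancer (chr11:62597955-62630283), which JMJD6 also occupied. The promoter peak (chr11:62623141-62623883) was 743 bp wide, with its centre 29 bp past the listed start. It held 6 non-canonical E-boxes and no CACGTG. SNHG1, a non-coding host gene of small nucleolar RNAs, has a listed N-Myc promoter over the same peak. The reference annotation places the main start of SLC3A2 farther into the gene, and the promoter peak lay 24.9 kb upstream of that start.

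The super-enhancer was 32.33 kb long, near the median of 28.44 kb over 162 N-Myc super-enhancers. It held 4 N-Myc peaks, against a median of 2, and 20.4% of N-Myc super-enhancers held 4 or more. None of the 4 peaks held CACGTG. Besides the promoter peak of SLC3A2, a peak of 948 bp (chr11:62599010-62599957) lay on the promoter of STX5, a syntaxin gene, and 2 peaks lay on listed promoters of WDR74. The wider of these (chr11:62608176-62609785, 1610 bp) was identical in the N-Myc and JMJD6 lists. It was the widest of the 19 N-Myc peaks and the only JMJD6 peak in any region that named a gene of the 9. Its centre lay in an intron of WDR74, it overlapped RNU2-2P, a gene of the U2 spliceosomal RNA family, and it was 14502 bp upstream of the listed SLC3A2 start. All of its 75-base words were unique in the reference. The list gives the distance from the region's centre as 4838 bp for WDR74 and 9464 bp for SLC3A2, so SLC3A2 is the farther of the named genes. Over the whole series, 43% of JMJD6 peaks and 2.37% of N-Myc peaks overlapped a peak of the other protein.

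SLC7A1 was named with MTUS2 at 1 N-Myc typical enhancer of 931 bp but at no N-Myc promoter. Its peak (chr13:30168327-30168922, 596 bp) lay in an intron and began 903 bp past the annotated start. The peak held 3 non-canonical E-boxes and no CACGTG. By distance to the nearest annotated start this peak was within 1 kb, and its centre was at 1.2 kb.

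GLS2 was named at 1 N-Myc typical enhancer, whose peak (chr12:56862182-56862825, 644 bp) was on the listed promoter of SPRYD4. The peak lay past the end of GLS2, 19.4 kb from the annotated GLS2 start and 3.431 kb from the nearest start of any GLS2 transcript. It held 1 CACGTG.

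SLC7A11 and GLUD1 had no N-Myc and no JMJD6 peak within 100 kb of the main annotated start. An N-Myc peak lay within that distance in 63.4% of all genes and 7 of the 9. Measured instead from the nearest of all annotated starts, the nearest N-Myc peak was 172.2 kb from SLC7A11 and 86.94 kb from GLUD1. Around the SLC7A11 start all 75-base words were unique, and around the GLUD1 start 94.6% were.

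**Figure D2:**
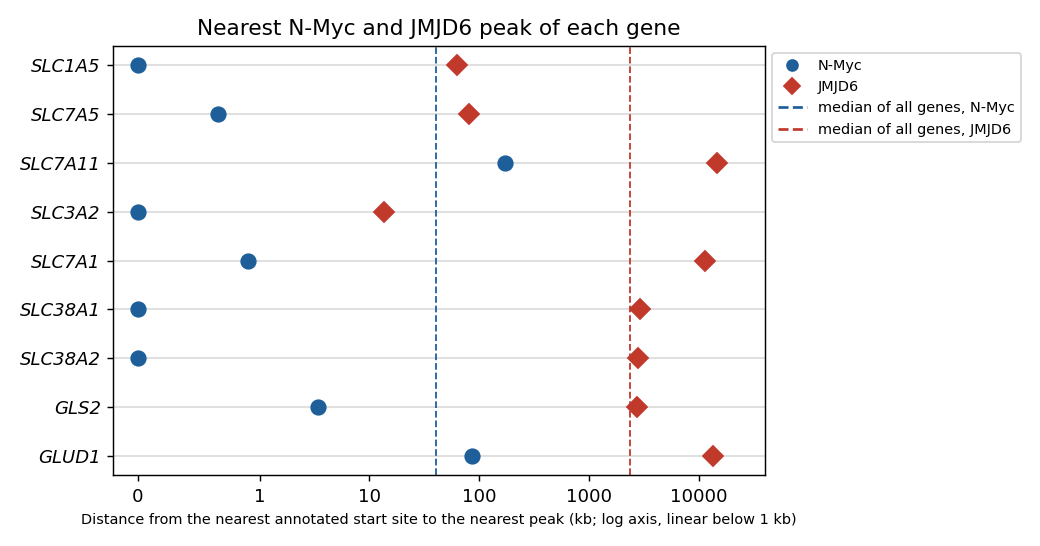
Distance in kb from the nearest annotated start site of each gene to the nearest N-Myc peak (circles) and JMJD6 peak (diamonds), on a log axis that is linear below 1 kb, with the medians over 19222 genes as dashed lines. For N-Myc, 7 of the 9 genes lie below the median of 40.48 kb, and SLC7A11 and GLUD1 lie above it.

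Over the 9 genes the median distance to the nearest N-Myc peak was 0.658 kb, against 40.48 kb over all genes. For JMJD6 it was 2816 kb against 2348 kb. A JMJD6 peak within 100 kb was found for 3 of the 9 genes, SLC3A2, SLC1A5 and SLC7A5, and for 5.6% of all genes. The nearest JMJD6 peak lay 13.69 kb from a start of SLC3A2, 62.27 kb from SLC1A5 and 81.24 kb from SLC7A5. For SLC1A5 it was intergenic, and for SLC7A5 it lay in an intron of BANP. In the other 6 genes it was between 2745 kb and 14680 kb away.

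The 7 N-Myc peaks on the genes' own promoters had a median width of 486 bp (302 to 856 bp), and all 3550 N-Myc promoter peaks had a median of 452 bp. The other 12 peaks fell into 2 kinds. Of these, 6 lay on listed promoters of other genes and had a median width of 741.5 bp (379 to 1610 bp). The remaining 6 lay off every listed promoter, in listed typical enhancers, and had a median of 610.5 bp (390 to 1337 bp). All 6622 N-Myc peaks off listed promoters had a median of 405 bp. Of the 6, only 1 fell below 405 bp, the intron peak of 390 bp in SLC7A5. The 6622 peaks were not limited to enhancers, so they are not a like background for the 6.

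**Figure D3:**
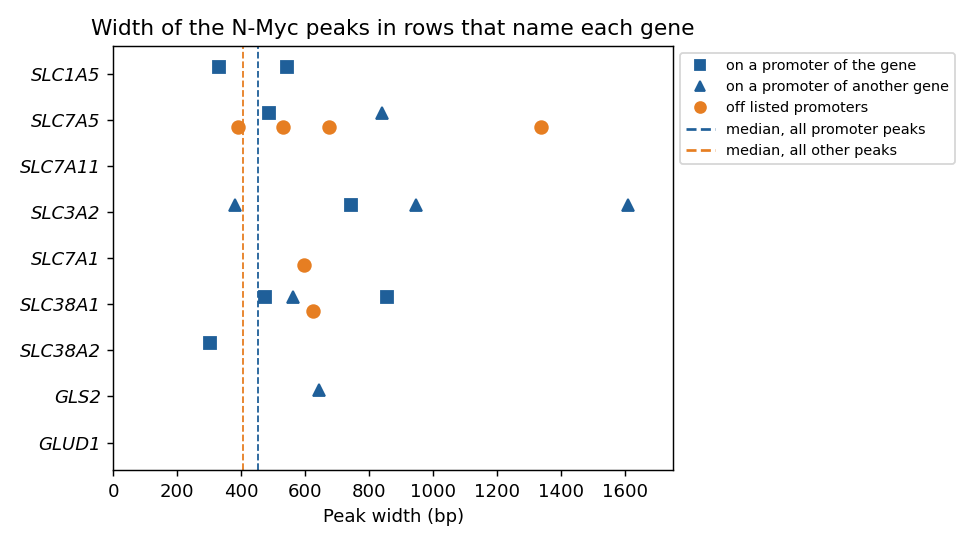
Width in bp of each of the 19 N-Myc peaks in regions that name the genes, with squares on the gene's own promoter, triangles on a promoter of another gene and circles off listed promoters. Dashed lines give the medians of 452 bp for all promoter peaks and 405 bp for all other peaks, and the widest peaks are those shared with JMJD6 at SLC3A2 (1610 bp) and upstream of SLC7A5 (1337 bp).

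Of the 7 promoter peaks of these genes, 3 held the canonical E-box CACGTG, against 36.9% of all N-Myc promoter peaks. With the non-canonical forms included it was 7 of 7, against 73.2%. Off every listed promoter 3 of 6 peaks held CACGTG, all near SLC7A5, against 31.6% of all N-Myc peaks there. The 6 peaks lay in typical enhancers, and the 31.6% was not limited to enhancers. On other genes' promoters, 2 of 6 peaks held CACGTG. Of the 19 peaks, 3 held 2 CACGTG sites, all at SLC7A5, and 4.71% of all N-Myc peaks held 2 or more. These 3 peaks were 486, 676 and 1337 bp wide, against a median of 418 bp over all N-Myc peaks. The shares were not adjusted for width.

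The E-box was also present where no peak was listed. Counting sites in peaks too, 5 of the 9 genes had a CACGTG within 1 kb of the annotated start, against 29.2% of all genes. Among genes listed with an N-Myc promoter the share was 47%, and among the others 25.2%. The 5 genes were SLC1A5, SLC7A5, SLC38A1, GLS2 and GLUD1. The only such site at SLC38A1 and 2 of the 3 at SLC7A5 lay in an N-Myc peak, and the rest lay in none. The windows below show CACGTG outside any N-Myc peak near the starts of SLC7A5, GLS2 and GLUD1, for comparison with the sites in peaks above. The GLUD1 site lies in an intron of SHLD2.
SLC7A5 upstream of the start, chr16:87903208-87903273: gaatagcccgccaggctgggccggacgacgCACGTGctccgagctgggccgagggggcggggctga
GLS2 intron, chr12:56881399-56881464: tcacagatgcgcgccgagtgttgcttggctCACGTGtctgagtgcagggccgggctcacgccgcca
GLUD1 upstream of the start, chr10:88855233-88855298: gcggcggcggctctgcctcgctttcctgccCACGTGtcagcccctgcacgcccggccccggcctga

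The C/EBP-ATF core was found within 1 kb of the main annotated start in 6 of the 9 genes, against 18.7% of all genes. These were SLC7A5, SLC7A11, SLC3A2, SLC7A1, SLC38A1 and SLC38A2. The SLC3A2 core lay 844 bp past the main annotated start, not at the listed start with the N-Myc peak. A core lay inside a listed N-Myc promoter peak at SLC7A5 and SLC38A1, which is 2 of 7 promoter peaks against 4.87% of all. Off every listed promoter a core lay in 2 of 6 peaks, both at SLC7A5, against 8.94%. That share too was not limited to enhancers, where the 6 peaks lay. On other genes' promoters, 0 of 6 peaks held a core. At SLC7A11 a pair of cores lay 73 bp and 92 bp upstream of the start, with no N-Myc peak near. At SLC7A1 the cores lay 10 bp and 534 bp past the start, both outside the N-Myc peak. A match to the letters is not evidence that ATF4 or a C/EBP protein was bound, and neither was measured. The cores are in capitals in the windows below, which place those inside and outside N-Myc peaks side by side. In the SLC7A11 window the other core follows in lower case.
SLC7A11 upstream of the start, chr4:139163561-139163628: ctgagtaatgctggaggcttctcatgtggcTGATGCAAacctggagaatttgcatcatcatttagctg
SLC7A1 intron, chr13:30169257-30169324: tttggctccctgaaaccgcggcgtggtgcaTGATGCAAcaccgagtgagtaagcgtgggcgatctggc
SLC7A5 promoter peak, chr16:87902395-87902462: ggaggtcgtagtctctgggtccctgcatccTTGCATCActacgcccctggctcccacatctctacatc
SLC7A5 intron peak, chr16:87887318-87887385: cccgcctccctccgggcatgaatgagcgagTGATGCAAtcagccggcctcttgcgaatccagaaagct
SLC38A1 promoter peak, chr12:46662572-46662601: aggggagattcTGATGCAAtcggcccggaa
SLC38A2 intron, chr12:46765806-46765873: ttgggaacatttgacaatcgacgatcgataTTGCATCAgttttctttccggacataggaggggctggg

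**Figure D4:**
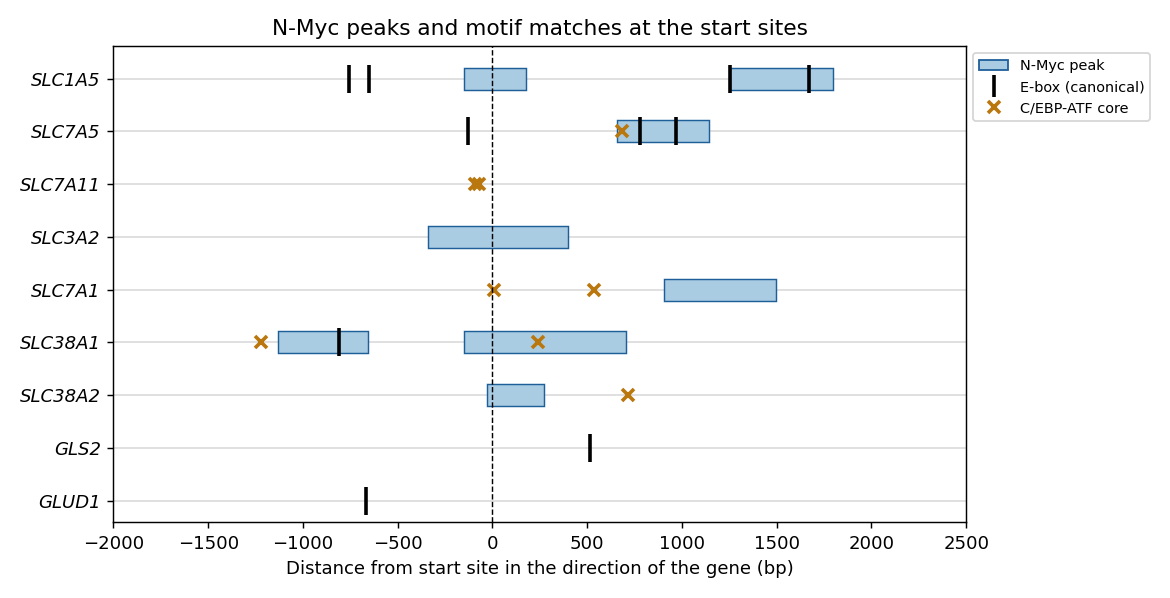
N-Myc peaks (boxes, to scale), canonical E-boxes (bars) and C/EBP-ATF cores (crosses) by distance in bp from the start site of each gene, with motifs searched within 1 kb of the start, in listed promoters and in peaks. The start of SLC3A2 is the listed one, where the 743 bp peak holds neither motif, and the motif matches drawn at SLC7A11, GLS2 and GLUD1 lie in no peak.

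Other genes of the pathway were read from lists chosen by function, also with earlier results of these data known. Of 62 further genes in 4 such lists, 13 (21%) had a listed N-Myc promoter, 24 were named at an N-Myc typical enhancer and 0 at a super-enhancer. Over all genes the shares were 18.3%, 32.7% and 1.36%, so the shares of these genes for promoters and enhancers were near the background. None had a JMJD6 promoter or typical enhancer. The difference from the 9 genes was not tested.

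Of 25 enzymes of glutamine and glutamate, 5 had a listed N-Myc promoter: GPT2, CAD, PPAT, PFAS and NADSYN1. GPT2 is an alanine transaminase, and the other 4 take the amide nitrogen of glutamine for pyrimidines (CAD), purines (PPAT and PFAS) and NAD (NADSYN1). PPAT had 3 promoter peaks, the widest 1140 bp, with 4 CACGTG sites in all. CAD had 1 peak of 620 bp with 2 CACGTG sites. ASNS, asparagine synthetase, was named only at an enhancer, and its nearest N-Myc peak was 18.98 kb away.

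Of 17 further genes of the SLC1, SLC7 and SLC3 families, 3 had a listed N-Myc promoter. These were the glutamate transporters SLC1A2 and SLC1A3 and the cationic transporter family member SLC7A14, each with 1 promoter peak and no CACGTG in it. SLC7A14 was also named at 5 typical enhancers, 1 more than SLC7A5. Of 16 genes of the SLC38, SLC36 and SLC43 families, 4 had one: SLC38A6, SLC38A9, SLC36A1 and SLC43A1. SLC38A9 is a lysosomal arginine sensor, and its promoter peak of 562 bp held 1 CACGTG. Of 4 mitochondrial carriers of glutamate, 1 had one, SLC25A22, with a peak of 462 bp and no CACGTG.

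**Figure D5:**
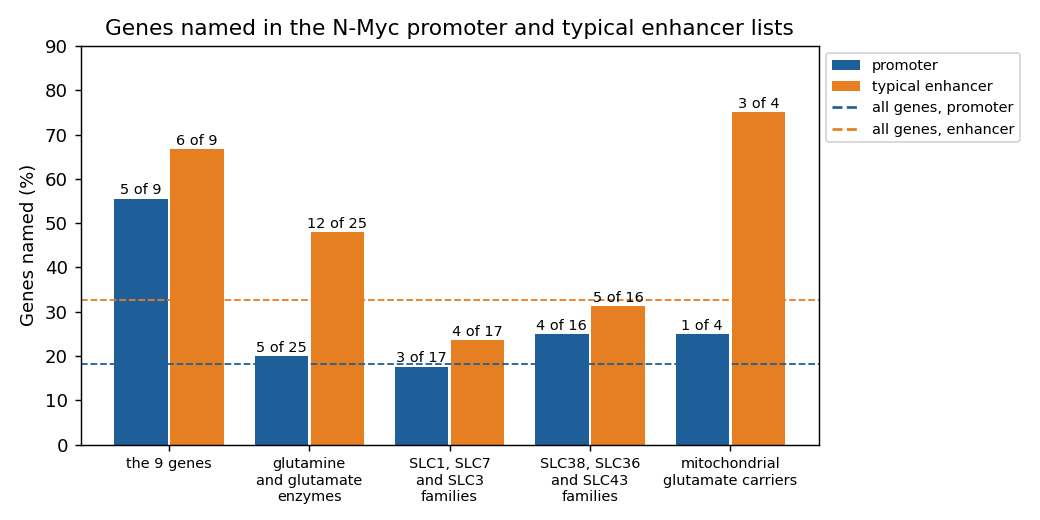
Share of genes (%) named in the N-Myc promoter list (blue) and the N-Myc typical enhancer list (orange), for the 9 genes and 4 further lists of the pathway, with the count above each bar. Dashed lines give the shares over all genes, 18.3% and 32.7%, and the 9 genes stand at 5 of 9 and 6 of 9.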

How the data were processed

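ChIP-seq was carried out by the authors in CHP-134 cells with 3 samples per antibody. The submitters' processing notes name BWA, SAMtools, bedtools and MACS2 2.1.1.20160309 with the hg19 (GRCh37) genome. Per the study's methods, peaks were called in each sample against input, and those present in all 3 samples were kept. Enhancers came from H3K27ac data with ROSE and nearest genes from GREAT. The 12 deposited lists hold other values than signal or counts, namely positions in bp, pooled over samples.

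Rows naming a gene in the promoter, typical enhancer and super-enhancer lists were read, with every common peak that overlapped them by at least 1 bp. Genes, start sites and untranslated regions came from GENCODE version 44 lifted to GRCh37. Where a gene has several annotated starts, the main (canonical) one was used for windows of 1 kb and 100 kb, and the nearest of all starts for distances to the nearest peak. Motifs were counted on both strands, a palindrome once. Uniqueness is the share of 75-base words found once in the reference on either strand. Scripts used Python 3.11.15, numpy 2.4.6, pysam 0.24.0 and matplotlib 3.10.9, and were tested on simulated data with planted motifs and intervals.

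The genes and pathway lists were chosen with earlier results of these data known. All 9 genes are named whatever their values. Other pathway genes are named where they had a listed promoter, and ASNS and the comparison with SLC7A14 were picked after their values were seen. No test was run, since no list carries a value per sample. Alternatives covered the definition of a promoter, the gene assigned to an enhancer, peak width and the motif.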

Additional observations from a re-analysis of the deposited data

How the results depend on the processing

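Of 25 alternatives over 9 results, 21 left the value within its tolerance and 4 moved it. The tolerance was 1.5 times for a count and, for a median over the 7 promoter peaks, its 95% binomial interval, which at this number spans all of them (4 to 892 bp for the distance). Some of the 21 could not have moved, so the tally does not measure robustness. A JMJD6 count of 0 cannot fall under a stricter rule. The listed N-Myc enhancers had been selected for overlapping a common peak. A median width over some of the 7 peaks cannot leave an interval that spans all of them. Genes named at an N-Myc typical enhancer fell from 6 to 3 when enhancers over an N-Myc promoter were left out. The super-enhancer count fell from 1 to 0 when only the nearer named gene was used, since WDR74 is nearer than SLC3A2. Promoter peaks with an E-box rose from 3 to 7 of 7 when non-canonical forms were counted. Further pathway genes with an N-Myc promoter fell from 13 to 8 of 62 when only peaks of at least the median width of 418 bp were kept. Over all genes the share fell from 18.3% to 10.9% by the same rule. With a peak within 1 kb of any annotated start the further genes numbered 17 of 62, against 21.5% of all genes. Among the 9 genes, the count with an N-Myc promoter was 6 with a peak within 1 kb of any annotated start (21.5% of all genes), 7 within 5 kb (26.5%) and 4 with wider peaks only (10.9%). The median distance of the promoter peak centre from the start was 218 bp by the listed starts and 42 bp by the nearest annotated start, a large move within that wide tolerance. No paired analysis was possible because the lists carry no column per sample, and for the same reason no replicate could be left out. The lists give no depth per peak, so an unlisted gene may hold a peak below the threshold or in fewer than 3 samples.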
